A study of Mus musculus with 3 samples.

Results

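Retnla, Mrc1, Clec10a, Chil3, Arg1 and Il4ra, 6 of the 32285 genes in the deposited count tables, were described in the macrophages, monocytes and dendritic cells of the mouse aorta. They were taken by gene symbol as markers of the alternatively activated macrophage, and all 6 had counts in macrophages or monocytes of every library. The cytokines interleukin-4 and interleukin-13 bind receptors that contain the IL-4 receptor alpha chain, encoded by Il4ra, and signal through the transcription factor STAT6. In mouse macrophages this pathway raises Retnla, which encodes the secreted resistin-like molecule RELM-alpha, Chil3, which encodes the chitinase-like lectin Ym1, Arg1, the enzyme that splits arginine into ornithine and urea, and the endocytic lectin receptors Mrc1 (CD206) and Clec10a (CD301). Macrophages that live in the arterial adventitia are known for CD206 and for the hyaluronan receptor Lyve1, and Chil3 is also known as a gene of neutrophil precursors and of young monocytes.

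Live leukocytes carrying CD45, the surface phosphatase common to white blood cells, were sorted from digested whole aortas with their adventitia, and each cell's RNA was counted by its 3′ end with unique molecular identifiers (UMIs, which count captured molecules rather than reads). All 3 groups are labelled as ApoE-/- mice on the C57BL/6J background, and mice of this genotype lack apolipoprotein E and develop atherosclerosis. The group labelled Ctrl is given as control, the group labelled HHcy drank water with homocysteine (Hcy) at 1.8 g/L over 4 weeks, and the group labelled WD was fed a western diet, also over 4 weeks. Each group is 1 library, and the labels used here give neither the number of mice pooled nor their age or sex, so that no test between groups was possible and every interval below covers counting error only. Differences therefore describe these 3 libraries, and a library and its treatment cannot be told apart. Values in sets of 3 are for the libraries labelled Ctrl, HHcy and WD, in that order.

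The libraries held 66789257, 105180370 and 93164076 UMIs, and 5514, 6567 and 5452 cells were used, with a median of 7722, 6855 and 8320 UMIs per cell. Ptprc, the CD45 gene, had a UMI in 90.8% to 93.6% of the cells, and 41 to 45 barcodes of each library also occurred in another. Apoe went against the label of the library labelled HHcy: it had 1090, 39368 and 1801 UMIs over all barcodes, and 1 of 1966, 190 of 1218 and 2 of 2692 macrophage or monocyte-like cells held 10 or more. Without those cells, 16 of the 17 calls past 2-fold that compare this library within a subset were kept, 1 turned and 3 others were gained. This setting leaves in every cell of that library with fewer Apoe UMIs, so the bearing of the Apoe difference on the calls was not tested. The call that turned and the class ratio that fell under 2-fold are given with their genes. The macrophage/monocyte-like class held 1966, 1218 and 2692 cells and the conventional dendritic-like class 435, 268 and 422, and each was divided into sub-clusters that carry a name only where their markers allow it and are otherwise called by their leading genes. The mix differed: an unnamed sub-cluster led by Ccl12, Ifit3 and Ifit2 made up 4.58%, 3.61% and 16.6% of the macrophages and monocytes, and a resident-like one led by Cd209f, Cd209d and Lyve1 made up 7.88%, 13.9% and 7.91%.

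Over the whole macrophage/monocyte-like class, Chil3 stood higher in the library labelled HHcy than in both others, Retnla stood lower in the library labelled WD than in both others, and Mrc1, Clec10a, Arg1 and Il4ra stayed under 2-fold in all 3 pairs. Between HHcy and Ctrl, 1 of the 6 genes was past 2-fold (Chil3, higher), where 3.35% of all 12398 genes with at least 20 UMIs were past it in either direction. Between WD and Ctrl it was again 1 of 6 (Retnla, lower), beside 3.98% of 13093 genes. Between HHcy and WD it was 2 of 6 (Retnla and Chil3, both higher in HHcy), beside 5.47% of 12932 genes. The median log2 ratio of the 6 genes was 0.09, 0.06 and 0.03 in these pairs, against -0.04, -0.01 and -0.01 over all genes tested, so that the list did not shift as a whole. The pairs share libraries and are not independent of each other.

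In the conventional dendritic-like class Arg1 had too few UMIs to be compared, and of the other 5 genes only Chil3 was past 2-fold. It was higher in HHcy than in Ctrl (4.2% of 10629 genes were past 2-fold), higher in WD than in Ctrl (4.4% of 11063) and lower in HHcy than in WD (5.44% of 10854). Its level there was 5.13, 13 and 35.2 CPM (the gene's UMIs per 1000000 UMIs of the class), from 33, 53 and 267 UMIs. The 10 cells with most Chil3 held 66.7%, 75.5% and 79.4% of these UMIs, and without them the level was 1.78, 3.37 and 7.56 CPM. Even with them, the Ctrl level was under the Chil3 level of Ctrl B cells, given below. Both ratios to Ctrl thus have a denominator no higher than in B cells.

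By subset, most of the calls were of Chil3 and Retnla, in opposite directions in different subsets. Between HHcy and Ctrl, resident-like macrophages had 1 of 5 tested genes past 2-fold (Chil3, higher), beside 3.66% of all genes, and foamy-like macrophages 1 of 6 (Arg1, lower), beside 5.46%; its sub-clusters went opposite ways, as given with Arg1. Non-classical monocyte-like cells had 2 of 5 (Chil3 higher, Retnla lower), beside 2.98%, and cavity-like macrophages 2 of 6 (Mrc1 and Chil3, higher), beside 5.95%. Cd209a dendritic-like cells had 1 of 5 (Chil3, higher) and Xcr1 dendritic-like cells 0 of 5, each beside 4.8%.

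Between WD and Ctrl, resident-like macrophages as a whole had 0 of 5 past 2-fold, beside 2.95% of all genes. Foamy-like macrophages had 2 of 6 (Retnla higher, Arg1 lower; 4.37%), non-classical monocyte-like cells 2 of 5 (Clec10a higher, Retnla lower; 2.95%) and cavity-like macrophages 2 of 6 (Mrc1 higher, Chil3 lower; 5.04%). Among dendritic subsets, Cd209a cells had 2 of 5 (Chil3 higher, Retnla lower; 4.33%), Xcr1 cells 1 of 5 (Chil3, higher; 5.3%) and mature cells 2 of 5 (Chil3 and Clec10a, higher; 7.15%). Between HHcy and WD, the counts were 0 of 5 in resident-like macrophages (3.33%), 2 of 6 in foamy-like ones (Retnla and Clec10a, lower; 7.41%), 1 of 5 in non-classical monocyte-like cells (Clec10a, lower; 3.74%) and 1 of 6 in cavity-like macrophages (Chil3, higher; 4.45%). Cd209a cells had 1 of 5 (Retnla, higher; 5.75%) and Xcr1 cells 2 of 5 (Mrc1 and Chil3, lower; 5.19%). Without the 10 highest cells of each library, 4 of the 11 subset calls between WD and Ctrl and 5 of the 17 that compare HHcy were kept, both Chil3 calls of classical monocyte-like cells among the latter. Of the other calls, 2 and 3 turned, 2 and 5 fell under 2-fold, and 3 and 4 had too few UMIs left. Under this setting 4 and 6 other calls were gained. The 10 cells are a larger part of a subset in the library that holds fewer of its cells, and the bearing of this on the calls was not tested.

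**Figure D1:**
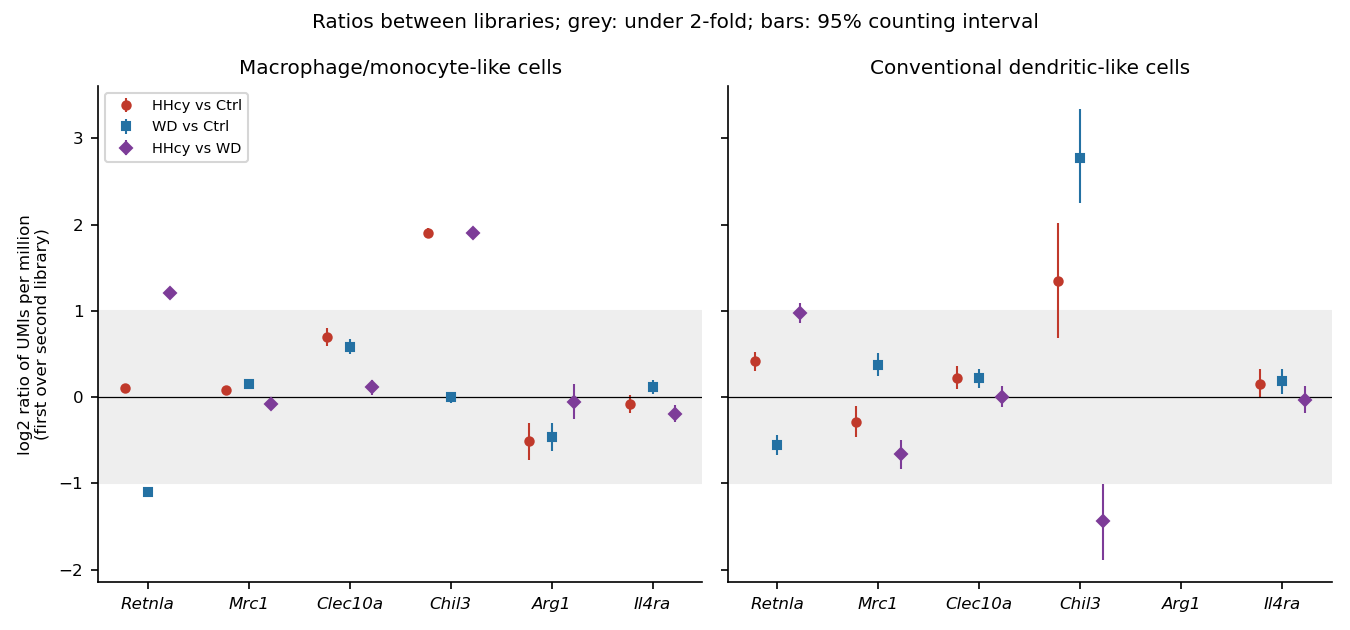
Log2 ratio of CPM between pairs of libraries (vertical axis) for the 6 genes (horizontal axis) in the macrophage/monocyte-like class (left) and the conventional dendritic-like class (right); colours and symbols give the pair, bars the 95% counting interval and the grey band ratios under 2-fold. Retnla (1.2 for HHcy over WD, -1.10 for WD over Ctrl) and Chil3 (1.90 for HHcy over either other library) leave the band on the left, Chil3 alone leaves it on the right, and Arg1 has no point on the right because it had too few UMIs.

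Il4ra, the receptor chain through which both cytokines act, lies on chr7:125552120-125579474 (plus strand, mm10, up to 12 exons) and had UMIs in all subsets. Its level in the macrophage/monocyte-like class was 106, 101 and 115 CPM, and in the conventional dendritic-like class 110, 123 and 125 CPM. These are close to each other and to the 100, 103 and 97.5 CPM of B cells, which carry this receptor themselves and so give no background for it. Among sub-clusters the highest levels were in the Cd163, Ccn1 and Adam33 resident-like macrophages (209, 229 and 215 CPM) and in the Lyve1 resident-like macrophages (211, 188 and 215 CPM). The ranges of these sub-clusters overlap each other and that of a small inflammatory-like sub-cluster (210 CPM in Ctrl, the library in which it held 50 cells), and lie above the next in order, the Ccl12 sub-cluster at 167 and 154 CPM in Ctrl and WD.

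Lower in the order of Il4ra came Cd209a dendritic-like cells (142, 167 and 135 CPM), foamy-like macrophages (104, 102 and 99.8 CPM), classical monocyte-like cells (82.9, 79.5 and 75.8 CPM) and non-classical monocyte-like cells (50.9, 54.8 and 62.0 CPM). Cavity-like macrophages, which carry genes known from macrophages of the body cavities such as Prg4, held 58.0, 34.9 and 47.3 CPM. The largest change of Il4ra in a subset with at least 50 cells in both libraries was in the Xcr1 and Clec9a dendritic-like cells, with 41.7 CPM in Ctrl and 79.6 CPM in WD, a log2 ratio of 0.93. With cells reduced to 2000 UMIs each, 30.8%, 32.6% and 30.8% of the resident-like macrophages had an Il4ra UMI, so neither the level nor the share of positive cells separated the libraries there.

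The other genes of the cytokine pathway gave no call past 2-fold in the macrophage/monocyte-like class. There 3.35% to 5.47% of all genes were past it, depending on the pair. Of 6 ligand and receptor genes, Il4ra included, 3 had enough UMIs, and 0 of these were past 2-fold in any pair. Il13ra1, which pairs with Il4ra in the receptor for both cytokines, stood at 57.5, 62.4 and 43.2 CPM, and Il2rg, the common gamma chain, stood at 114, 96.0 and 82.5 CPM. Il13ra2, the decoy receptor, had 0 UMIs. The cytokine gene Il4 was at 0.11, 0.75 and 0.23 CPM and Il13 at 0.06, 0.08 and 0.33 CPM in this class, while Il13 reached 293, 138 and 163 CPM in 29, 47 and 54 cells with markers of type 2 innate lymphoid cells (ILC2-like cells). These ligands were named after their values were seen. Of 7 genes of IL-4 receptor signalling and 8 regulators of alternative activation, every gene was tested and 0 were past 2-fold in any pair. A count of 0 in lists this short lies near the shares of all genes and is not read as a result about them.

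**Figure D2:**
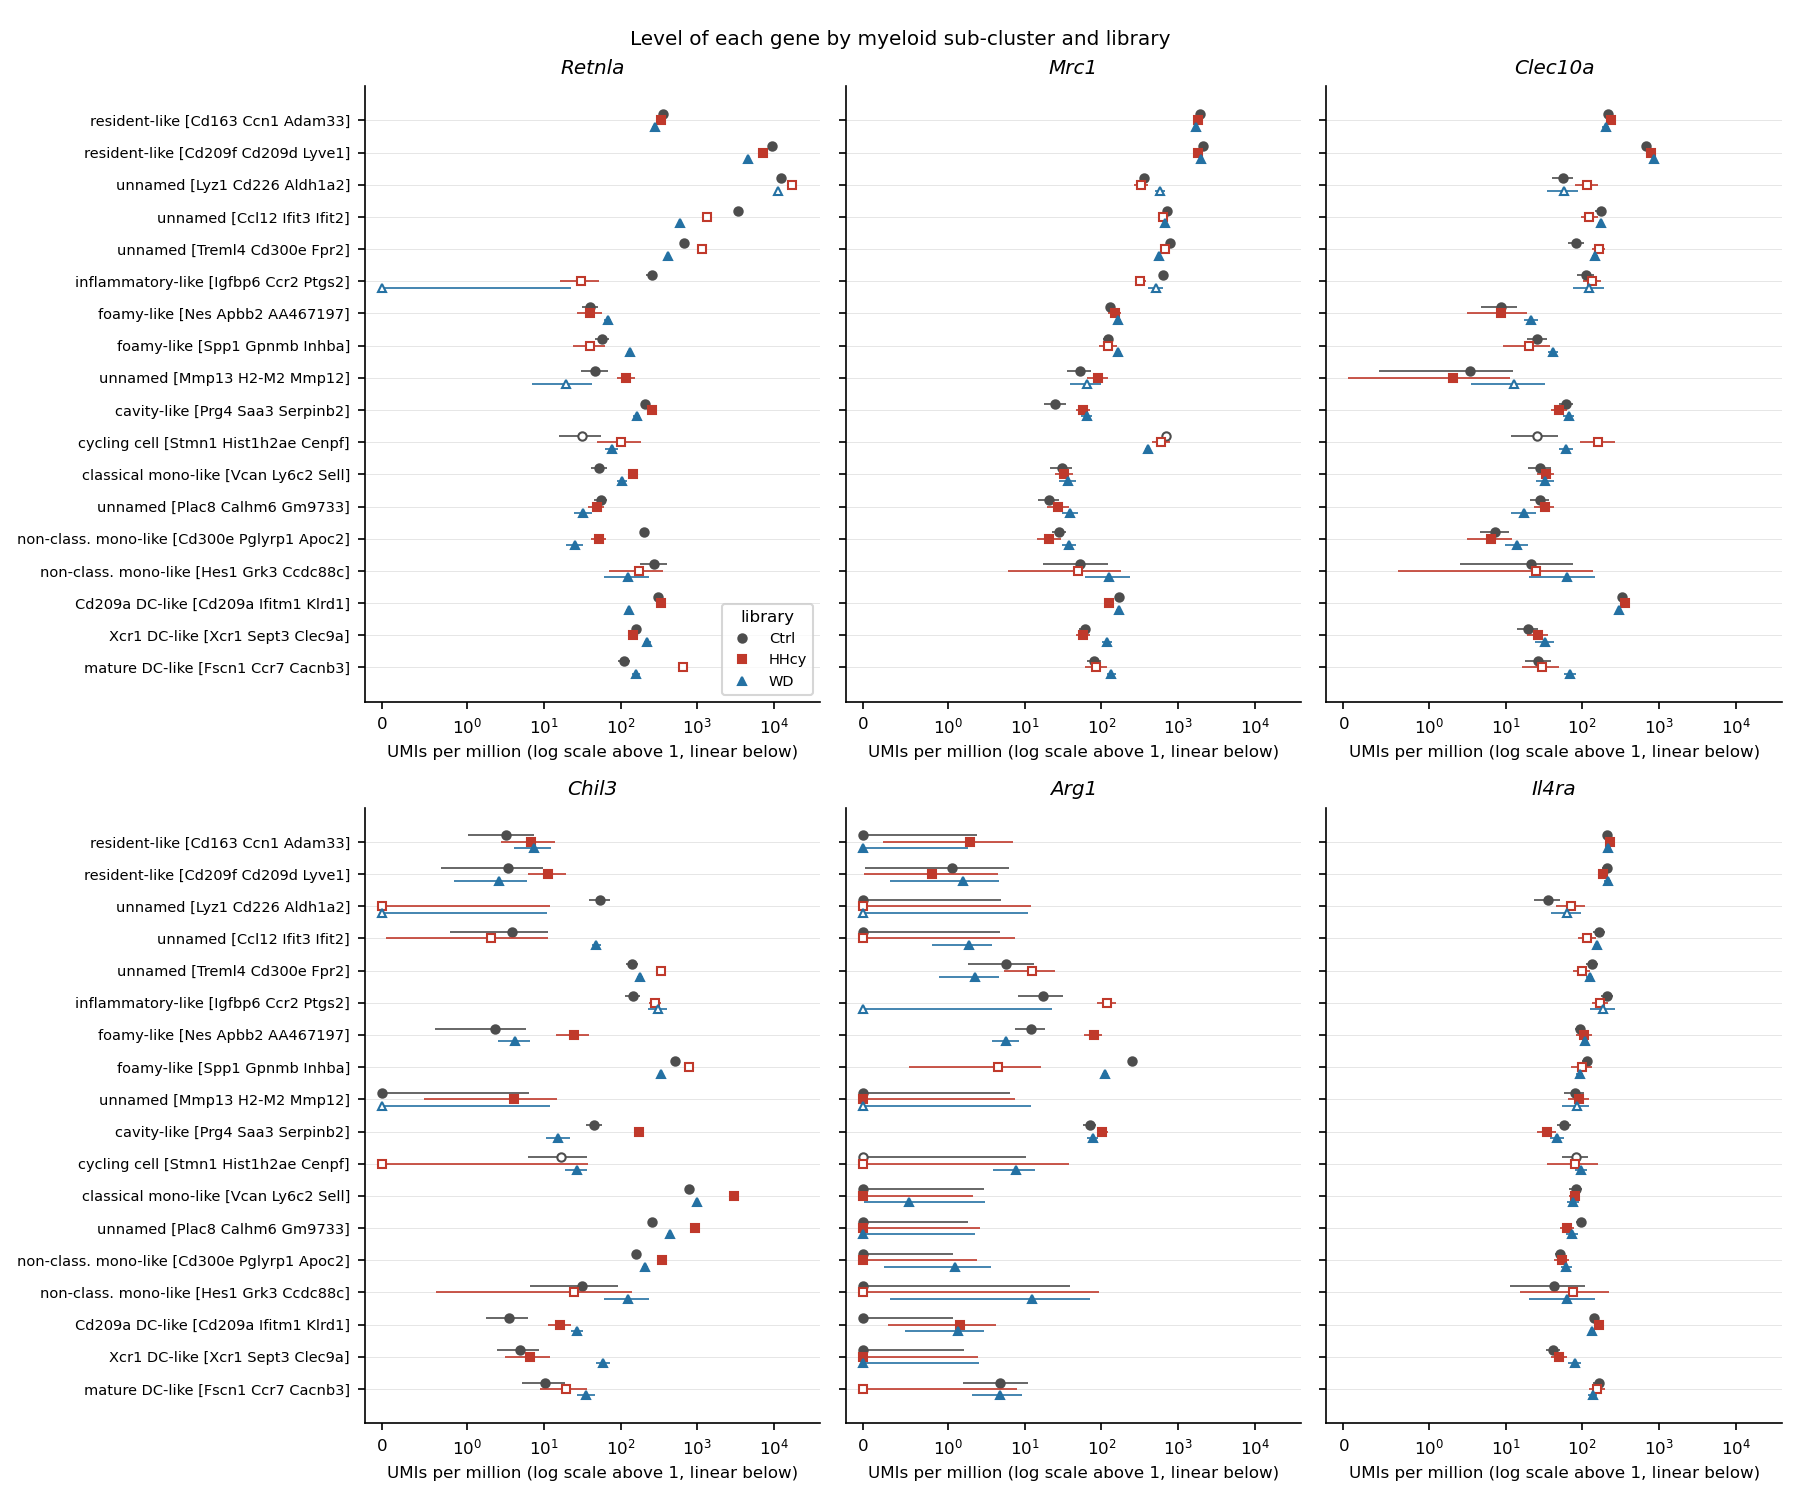
CPM (horizontal axis, logarithmic above 1 and linear below) of each of the 6 genes, 1 panel each, in the macrophage, monocyte and dendritic sub-clusters (vertical axis) of the libraries labelled Ctrl, HHcy and WD; bars are 95% counting intervals and open symbols mark sums of fewer than 50 cells. Mrc1 stands high in both resident-like sub-clusters, Clec10a and Retnla in the Lyve1 one and Retnla also in the Lyz1 one, Chil3 in the classical monocyte-like cells, Arg1 in the Spp1 foamy-like (not HHcy) and cavity-like macrophages, and Il4ra in all sub-clusters.

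Mrc1, the mannose receptor that takes up glycoproteins, marked both resident-like sub-clusters and differed little between libraries. The gene lies on chr2:14229392-14332057 (plus strand, mm10, up to 30 exons). The Lyve1 resident-like macrophages held 2130, 1795 and 2011 CPM, and 96.8%, 98.2% and 99.5% of their 155, 169 and 213 cells had an Mrc1 UMI. The Cd163 resident-like macrophages held 1930, 1794 and 1733 CPM, with a UMI in 95.6%, 95.1% and 95.3% of 295, 185 and 343 cells. These 2 ranges overlap each other, and both lie above the Ccl12 sub-cluster (722 and 678 CPM in Ctrl and WD). In the Lyve1 macrophages the log2 ratio was -0.25 for HHcy over Ctrl and -0.08 for WD over Ctrl.

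Away from the resident-like macrophages Mrc1 was lower, to different degrees, in the sub-clusters with at least 50 cells in a library. Besides the Ccl12 sub-cluster, an unnamed one led by Treml4 and Cd300e held 793 and 568 CPM in Ctrl and WD. Inflammatory-like macrophages held 630 CPM in Ctrl, cycling cells 401 CPM in WD and an unnamed sub-cluster led by Lyz1 362 CPM in Ctrl. Other groups were lower still. Foamy-like macrophages held 126, 140 and 166 CPM and Cd209a dendritic-like cells 168, 125 and 167 CPM. Classical and non-classical monocyte-like cells, at 30.6, 32.8 and 36.3 CPM and 29.0, 21.7 and 41.2 CPM, were near the 22.1, 22.2 and 22.6 CPM of B cells, which should lack the gene. With every cell reduced to 2000 UMIs, 93.0%, 95.8% and 95.2% of Lyve1 macrophages and 3.81%, 4.64% and 4.75% of B cells had an Mrc1 UMI. The median depth before this reduction was 5109, 6838 and 8363 UMIs in the Lyve1 macrophages and 7781, 6544 and 6799 in B cells.

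In the cavity-like macrophages Mrc1 was, as counted above, past 2-fold in both comparisons with Ctrl, at 25.1, 58.4 and 64.6 CPM. Those levels came from 39, 87 and 138 UMIs, and 10 cells held 66.7%, 82.8% and 79.7% of them. Without these the ratios to Ctrl were 0.35 for HHcy and 0.68 for WD, under 2-fold. Many of the cavity-like cells of HHcy held 10 or more Apoe UMIs, as given with Chil3, and the bearing of this on Mrc1 was not tested. Over the whole macrophage/monocyte-like class Mrc1 was at 432, 456 and 482 CPM, a log2 ratio of 0.08 (0.03 to 0.13) for HHcy over Ctrl and 0.16 (0.12 to 0.20) for WD over Ctrl.

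Clec10a, the galactose-type lectin CD301, was found in the Lyve1 resident-like macrophages and in Cd209a dendritic-like cells. It lies on chr11:70156197-70170834 (plus strand, mm10, up to 10 exons). Its level was 684, 788 and 869 CPM in the Lyve1 macrophages, 326, 360 and 300 CPM in Cd209a dendritic-like cells and 216, 234 and 203 CPM in the Cd163 resident-like macrophages. No ranges overlapped among these 3 or with the Ccl12 sub-cluster below them (173 CPM in both Ctrl and WD). Clec10a thus separated the 2 resident-like sub-clusters, which Mrc1 and Il4ra did not.

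The share of cells with a Clec10a UMI at 2000 UMIs per cell was 59.2%, 61.2% and 65.9% in Lyve1 macrophages and 38.0%, 42.5% and 37.3% in Cd209a dendritic-like cells, against 0.942%, 1.12% and 2.07% in B cells. The median depth of the Cd209a cells was 14520, 15158.5 and 17730 UMIs. Foamy-like macrophages held 17.2, 13.1 and 31.3 CPM, Xcr1 dendritic-like cells 19.5, 26.5 and 32.5 CPM, classical monocyte-like cells 28.2, 33.4 and 33.0 CPM and non-classical monocyte-like cells 7.71, 7.01 and 15.6 CPM, the last close to the 5.81, 7.26 and 7.24 CPM of B cells.

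Across the class, Clec10a stood at 86.2, 140 and 129 CPM, a log2 ratio of 0.70 (0.60 to 0.80) for HHcy over Ctrl and 0.58 (0.50 to 0.67) for WD over Ctrl. Within the Lyve1 macrophages the same ratios were 0.20 and 0.35. The Lyve1 macrophages made up 7.88%, 13.9% and 7.91% of the class and held 23.0%, 38.7% and 30.4% of all Clec10a UMIs of macrophages, monocytes and conventional dendritic cells. In the class ratio, the number of these cells and the RNA per cell both enter.

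Mgl2, the near copy of Clec10a (89.7% identical over the aligned transcript, 25.9 kb away), had the same leading sub-cluster, at 1044, 1180 and 944 CPM in Lyve1 macrophages and 408, 183 and 322 CPM in Cd209a dendritic-like cells. Of the 50-base windows of Clec10a, 10.6% also occur in Mgl2. Where these windows lie along the transcripts, and whether they affected the counting of reads, was not tested.

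Retnla, which encodes RELM-alpha, was concentrated in few cells: the Lyve1 resident-like macrophages and a small unnamed sub-cluster led by Lyz1, Cd226 and Aldh1a2. Together these held most of its UMIs in every library. The gene lies on chr16:48842551-48844461 (plus strand, mm10, up to 4 exons), and 192 bases before its start are shown, read 5′ to 3′ on the plus strand from chr16:48842359-48842550, because a pair of motif matches lies within them.

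Retnla promoter: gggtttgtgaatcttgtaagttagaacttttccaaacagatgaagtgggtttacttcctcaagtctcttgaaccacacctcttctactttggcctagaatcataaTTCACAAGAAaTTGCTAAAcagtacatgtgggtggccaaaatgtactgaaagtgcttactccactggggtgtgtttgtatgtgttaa

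Capitals mark a match to the STAT6 motif, TTC and GAA with 4 bases of any kind between them, at 87 bases before the start, and a match to TTGCNNAA, letters of C/EBP sites, at 76 bases. Both strands were searched. The distances are to the gene start given above. Of 32851 RefSeq promoter windows of 250 bases, which run up to the RefSeq start instead, 5.85% held the first and 9.56% the second. Sequences are from RefSeq for GRCm38.p6 and 4 of the 6 genes were matched. The windows of Mrc1 and Il4ra held neither motif.

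The Lyz1 sub-cluster, of 54, 29 and 26 cells, held 12492, 16942 and 11364 CPM of Retnla, with a UMI in 96.3%, 93.1% and 84.6% of its cells. Its fixed resident-macrophage markers summed to 346, 421 and 637 CPM, against 14035, 15365 and 16485 CPM in the Lyve1 macrophages, while all 12 macrophage and monocyte markers were present, at 11853, 10725 and 12824 CPM. Its 11 conventional dendritic markers summed to 635, 946 and 369 CPM, with 9, 8 and 7 of them present, and its 12 cavity-like markers to 287, 258 and 451 CPM. The sub-cluster had 0 Arg1 UMIs in every library. Only in Ctrl did it reach 50 cells, and its share of the class was 2.75%, 2.38% and 0.966%.

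The Lyve1 resident-like macrophages held 9367, 7292 and 4535 CPM of Retnla. The log2 ratio was -0.36 (-0.40 to -0.32) for HHcy over Ctrl, -1.05 (-1.09 to -1.0) for WD over Ctrl and 0.69 (0.64 to 0.73) for HHcy over WD. Retnla was the 1 gene of 4 tested that passed 2-fold between WD and Ctrl in this sub-cluster, where 5.36% of all genes did. These levels came from 8291, 8904 and 8645 Retnla UMIs, and the cells of the library with the lowest level, WD, had the highest median depth.

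Per cell, Retnla spread widely within the Lyve1 macrophages. The median cell had 7, 8 and 1 UMIs, the highest had 647, 411 and 484, and 28.4%, 26.6% and 39.9% of the cells had 0. Cells with at least 10 UMIs were 48.4%, 49.1% and 35.2%, and cells with at least 100 numbered 32 of 155, 32 of 169 and 29 of 213. The WD library thus held a smaller share of cells at both limits. Without the 10 highest cells of each library the levels were 6424, 5487 and 2927 CPM, in the same order. With cells reduced to 2000 UMIs, 63.4%, 66.1% and 49.5% had a Retnla UMI, against 11.4%, 9.15% and 5.29% of B cells.

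**Figure D3:**
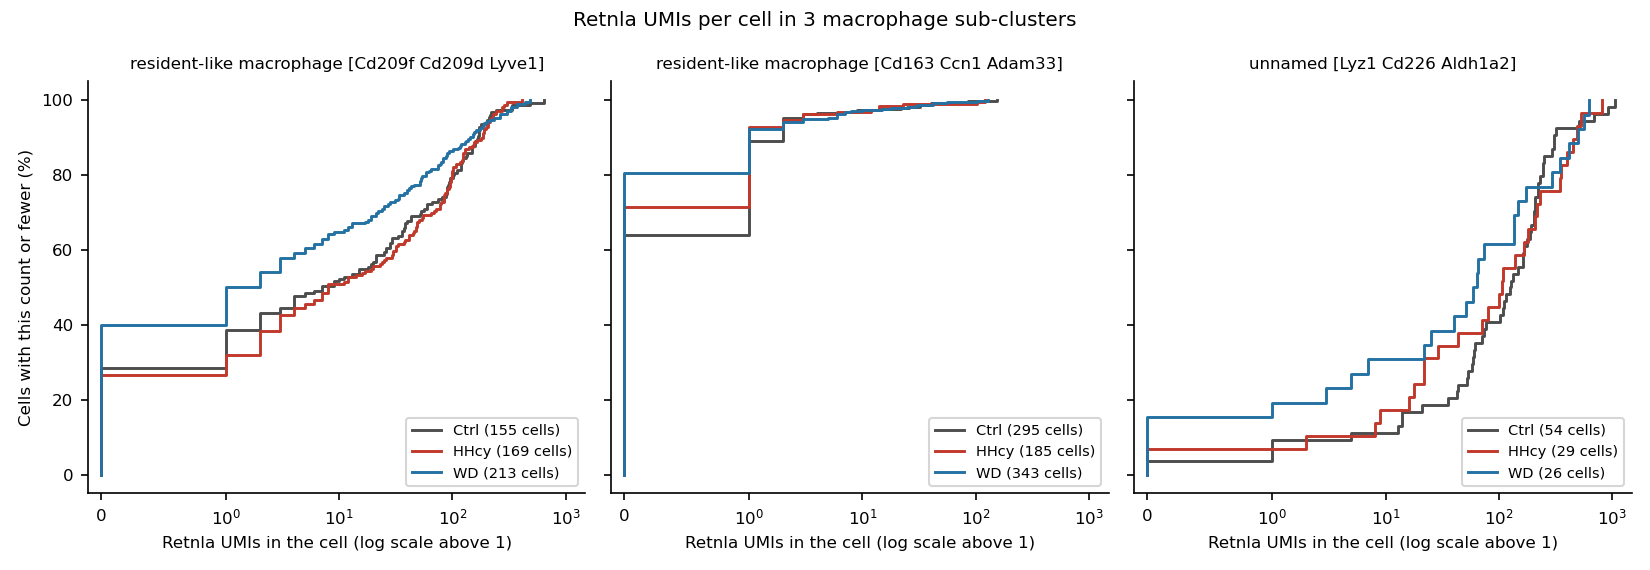
Share of cells (vertical axis, percent) with at most the number of Retnla UMIs on the horizontal axis (logarithmic above 1), in the Lyve1 resident-like, Cd163 resident-like and Lyz1 sub-clusters of each library. The Lyve1 curve of WD starts at 39.9% of cells without a UMI, above 28.4% in Ctrl and 26.6% in HHcy, and the Lyz1 curves lie farthest to the right.

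The Cd163 resident-like macrophages, which matched the Lyve1 macrophages in Mrc1, held far less Retnla, at 355, 339 and 279 CPM. Of these UMIs 77.8%, 86.7% and 81.0% were in 10 cells, and without those the level was 81.8, 47.9 and 55.8 CPM. Retnla in the Ccl12 sub-cluster was 3393 CPM in Ctrl and 588 CPM in WD, but 93.0% and 69.3% of its UMIs came from 10 cells, and without them the levels were 282 and 188 CPM.

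Retnla in monocytes, foamy-like macrophages and dendritic cells was low and mostly in a handful of cells. Classical monocyte-like cells held 53.1, 147 and 106 CPM, non-classical ones 206, 54.8 and 28.4 CPM, foamy-like macrophages 48.9, 40.2 and 99.1 CPM, cavity-like macrophages 208, 254 and 162 CPM and Cd209a dendritic-like cells 312, 337 and 128 CPM. Without the 10 highest cells the non-classical level was 56.2, 32.0 and 22.3 CPM and the classical level 32.7, 22.4 and 20.1 CPM. B cells, which should lack the gene, held 61.9, 43.3 and 20.1 CPM on the same footing, a level that was itself lowest in WD. With 10 cells set aside, Retnla in both monocyte subsets was thus close to or under the B cell level of the same library, and no difference between libraries is read there.

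Over the class, Retnla was at 1294, 1394 and 605 CPM, with log2 ratios of 0.11 (0.08 to 0.14) for HHcy over Ctrl, -1.10 (-1.12 to -1.07) for WD over Ctrl and 1.2 (1.17 to 1.23) for HHcy over WD. The Lyve1 macrophages supplied 33.8%, 49.5% and 44.0% of the Retnla UMIs of macrophages, monocytes and conventional dendritic cells, and the Lyz1 sub-cluster 38.7%, 28.9% and 19.3%. With the subsets weighted alike in both libraries the WD over Ctrl ratio was -0.64 and the HHcy over WD ratio 0.64, so both were under 2-fold. With doublets kept or cells named by their own markers the WD over Ctrl ratio was -0.76 and -0.83, also under 2-fold. Without the cells of 10 or more Apoe UMIs the HHcy over WD ratio was 0.97.

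Chil3, the secreted lectin Ym1, was a gene of classical monocyte-like cells, and it was there that the library labelled HHcy stood apart. It lies on chr3:106147554-106167564 (minus strand, mm10, up to 11 exons). The 250 bases before its start, chr3:106167565-106167814, are shown 5′ to 3′ on the minus strand to set them beside those of Retnla.

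Chil3 promoter: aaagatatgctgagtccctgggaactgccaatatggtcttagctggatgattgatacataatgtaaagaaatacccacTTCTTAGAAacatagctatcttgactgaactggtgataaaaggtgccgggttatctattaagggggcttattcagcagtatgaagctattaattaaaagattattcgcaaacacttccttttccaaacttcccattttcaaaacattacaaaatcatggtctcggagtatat

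Capitals mark a match to TTCNNNGAA, the general STAT letters with a spacing of 3, at 172 bases before the start, which 7.02% of all windows held. The STAT6 motif with its spacing of 4 and the letters TTGCNNAA, both seen before Retnla, were not in this window. A match is a description of letters and not of binding.

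Classical monocyte-like cells held 788, 3004 and 1001 CPM of Chil3, from 979, 5216 and 1822 UMIs in 149, 136 and 152 cells. The HHcy level was 3.81-fold that of Ctrl (log2 ratio 1.93, 1.83 to 2.03) and 3.0-fold that of WD (1.59, 1.51 to 1.66), while WD over Ctrl was 0.35 (0.23 to 0.46). The median cell had 2, 22 and 5 UMIs and the highest 43, 268 and 82. Without the 10 highest cells the levels were 566, 2342 and 708 CPM, so the difference did not rest on few cells.

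In this subset Retnla and Chil3 were the 2 of 5 tested genes past 2-fold between HHcy and Ctrl, beside 5.39% of all genes. Between WD and Ctrl 0 of 5 were past it (5.17% of all genes), and between HHcy and WD only Chil3 was (4.15%). At 2000 UMIs per cell, 48.3%, 80.0% and 52.3% of the classical monocyte-like cells had a Chil3 UMI, against 0.514%, 1.04% and 1.07% of B cells. The median depth was 8021, 12615 and 10592.5 UMIs before this reduction. Without it the shares were 63.1%, 85.3% and 76.3%.

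Chil3 was also highest in HHcy in an unnamed sub-cluster and in non-classical monocyte-like cells. The unnamed one, led by Plac8 and Calhm6, held 255, 942 and 437 CPM of Chil3, a log2 ratio of 1.89 (1.74 to 2.04) for HHcy over Ctrl and 1.11 (0.98 to 1.24) for HHcy over WD. Non-classical monocyte-like cells held 154, 342 and 203 CPM, with HHcy over Ctrl at 1.15 and HHcy over WD at 0.75, and without the 10 highest cells HHcy over Ctrl was 0.80, under 2-fold. Resident-like macrophages had 8, 21 and 20 Chil3 UMIs in all, or 3.28, 9.37 and 5.10 CPM, a level near that of B cells at 6.27, 6.75 and 9.86 CPM.

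Neutrophil-like cells also held Chil3, most of it in the clusters with precursor genes. The cluster led by Camp and Fcnb held 3827, 4658 and 4420 CPM in 27, 9 and 14 cells, the cluster led by Ngp, Ltf and Camp 2106, 1994 and 3137 CPM, and the mature cluster led by G0s2 and Cxcr2 64.7, 85.1 and 66.8 CPM. The 8 neutrophil markers in classical monocyte-like cells summed to 1147, 988 and 651 CPM, with Ly6g at 0 in Ctrl and WD and Cxcr2 at 0 in WD. In the Plac8 sub-cluster the same markers summed to 271, 464 and 292 CPM and in non-classical monocyte-like cells to 414, 604 and 447 CPM, highest in HHcy in both. Single neutrophil genes of the classical monocyte-like cells went either way. Camp was at 113, 47.8 and 4.40 CPM and Ngp at 40.2, 30.5 and 6.05 CPM, while Trem1 was at 97.3, 152 and 108 CPM, Ltf at 16.9, 24.8 and 2.75 CPM and Elane at 9.65, 15.6 and 2.75 CPM. The part of neutrophil RNA in the Chil3 values was not tested.

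**Figure D4:**
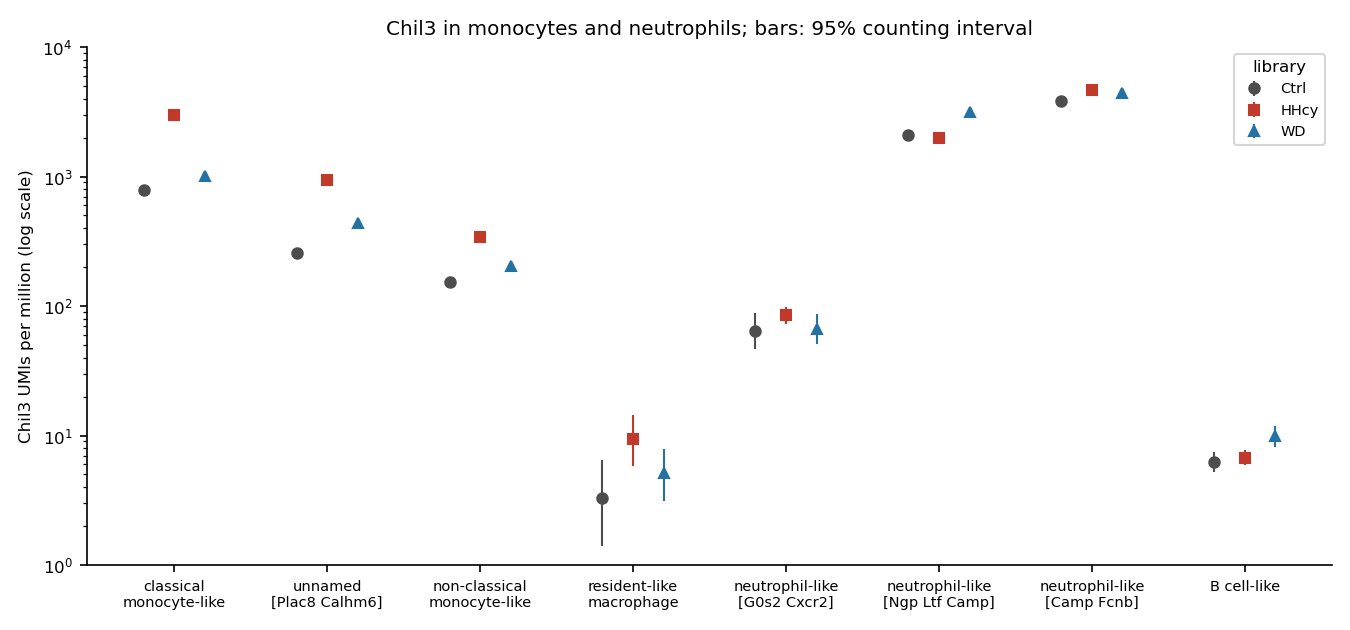
Chil3 CPM (vertical axis, logarithmic) in monocyte, macrophage, neutrophil-like and B cell groups (horizontal axis) of each library, with 95% counting intervals. Classical monocyte-like cells of HHcy reach 3004, above 788 in Ctrl and 1001 in WD, in the range of the neutrophil precursor clusters, while resident-like macrophages lie at the level of B cells.

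Over the class, Chil3 was at 179, 669 and 179 CPM, 3.74-fold higher in HHcy than in Ctrl (log2 ratio 1.90, 1.84 to 1.96), and 1.90 (1.85 to 1.95) over WD. The difference between WD and Ctrl had an interval of -0.07 to 0.06. Classical monocyte-like cells were 6.21%, 9.15% and 4.88% of all macrophages, monocytes and conventional dendritic cells and held 30.3%, 64.4% and 31.8% of their Chil3 UMIs. Within the dendritic subsets Chil3 was at 3.51, 16.2 and 27.0 CPM in Cd209a cells and 4.88, 6.62 and 59.5 CPM in Xcr1 cells, of which 10 cells held every UMI of the latter. Foamy-like macrophages held 253, 319 and 169 CPM of Chil3, most of it in the Spp1 sub-cluster at 508, 777 and 339 CPM, which ranked above the non-classical cells. There 10 cells held 88.4%, 97.1% and 39.0% of the UMIs, and without them the levels were 65.5, 34.8 and 214 CPM, with HHcy (31 cells) lowest. In cavity-like macrophages Chil3 was at 45.8, 172 and 15.4 CPM, and 10 cells held 76.1%, 97.3% and 81.8% of the UMIs. Its HHcy over Ctrl ratio there turned from 1.91 to -0.51 without the cells of 10 or more Apoe UMIs, which left 44 of the 80 HHcy cells.

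Chil4, a near copy 53.9 kb away with 94.4% identity, had 0 UMIs in the class. Of the 50-base windows of Chil3, 18.5% occur in Chil4.

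Arg1, the arginase that competes with nitric oxide synthase for arginine, was rare. It lies on chr10:24915221-24927484 (minus strand, mm10, up to 8 exons). The class held 576, 272 and 716 Arg1 UMIs, or 32.3, 22.6 and 23.5 CPM, in 2.75%, 3.45% and 3.64% of its cells. The log2 ratio was -0.51 (-0.73 to -0.30) for HHcy over Ctrl and -0.46 (-0.62 to -0.30) for WD over Ctrl. The 10 highest cells held 72.6%, 73.9% and 42.2% of the UMIs, so that these ratios describe few cells. Both turned when cells were named by their own markers, to 0.86 and 0.12, and the second turned to 0.61 without the 10 highest cells.

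In Ctrl and WD Arg1 was found mainly in foamy-like macrophages led by Spp1 and Gpnmb, and in HHcy mainly in cavity-like macrophages. The Spp1 sub-cluster held 253 CPM in 118 Ctrl cells and 113 CPM in 254 WD cells, and in HHcy, with 31 cells, 2 UMIs. A UMI was seen in 17.8% and 14.6% of the Ctrl and WD cells, and the 10 highest cells held 93.5% and 61.4% of the UMIs. Without them the order turned, with 18.6 CPM in Ctrl and 45.8 CPM in WD. The 10 cells are a larger part of the 118 Ctrl cells than of the 254 WD cells, and the part of this in the turn was not tested. Cells with at least 10 Arg1 UMIs were 7.63% and 7.48% of the Ctrl and WD cells. Cavity-like macrophages held 70.3, 103 and 76.7 CPM, in 21.1%, 23.8% and 24.6% of 114, 80 and 118 cells, and without their 10 highest cells 25.1, 12.9 and 25.2 CPM. Many of these HHcy cells held 10 or more Apoe UMIs, as given with Chil3, and the bearing of this on Arg1 was not tested.

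The other foamy-like sub-cluster, led by Nes, held 21, 55 and 26 Arg1 UMIs, or 12.1, 79.1 and 5.78 CPM, and was past 2-fold higher in HHcy than in Ctrl (log2 ratio 2.71) and than in WD (3.77). Of these UMIs, 1 cell of Ctrl held all 21 and 1 cell of HHcy held 54, while 10 cells of WD held the 26, so that both ratios rest on 1 cell of HHcy. Inflammatory-like macrophages of HHcy, 44 cells, were at 119 CPM. In the foamy-like macrophages as a whole Arg1 was at 131, 49.9 and 58.5 CPM.

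Arg1 UMIs were few in the monocytes, resident-like macrophages and dendritic cells. Classical monocyte-like cells had 0, 0 and 1 UMIs, non-classical ones 0, 0 and 4, resident-like macrophages 1, 3 and 3, conventional dendritic-like cells 5, 3 and 14, and neutrophil-like cells 0 in every library. B cells had 4, 15 and 1 UMIs. The resident-like macrophages thus combined high Mrc1, Clec10a and, in part, Retnla with almost no Arg1. ILC2-like cells held the highest Arg1 level of the classes examined, at 317, 346 and 256 CPM, with a UMI in 62.1%, 66.0% and 61.1% of their cells. In the Spp1 sub-cluster the 9 ILC2 markers summed to 89.4, 73.7 and 180 CPM with 5, 3 and 6 of them present, and Il5, Hlf and Calca were at 0 in all libraries.

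**Figure D5:**
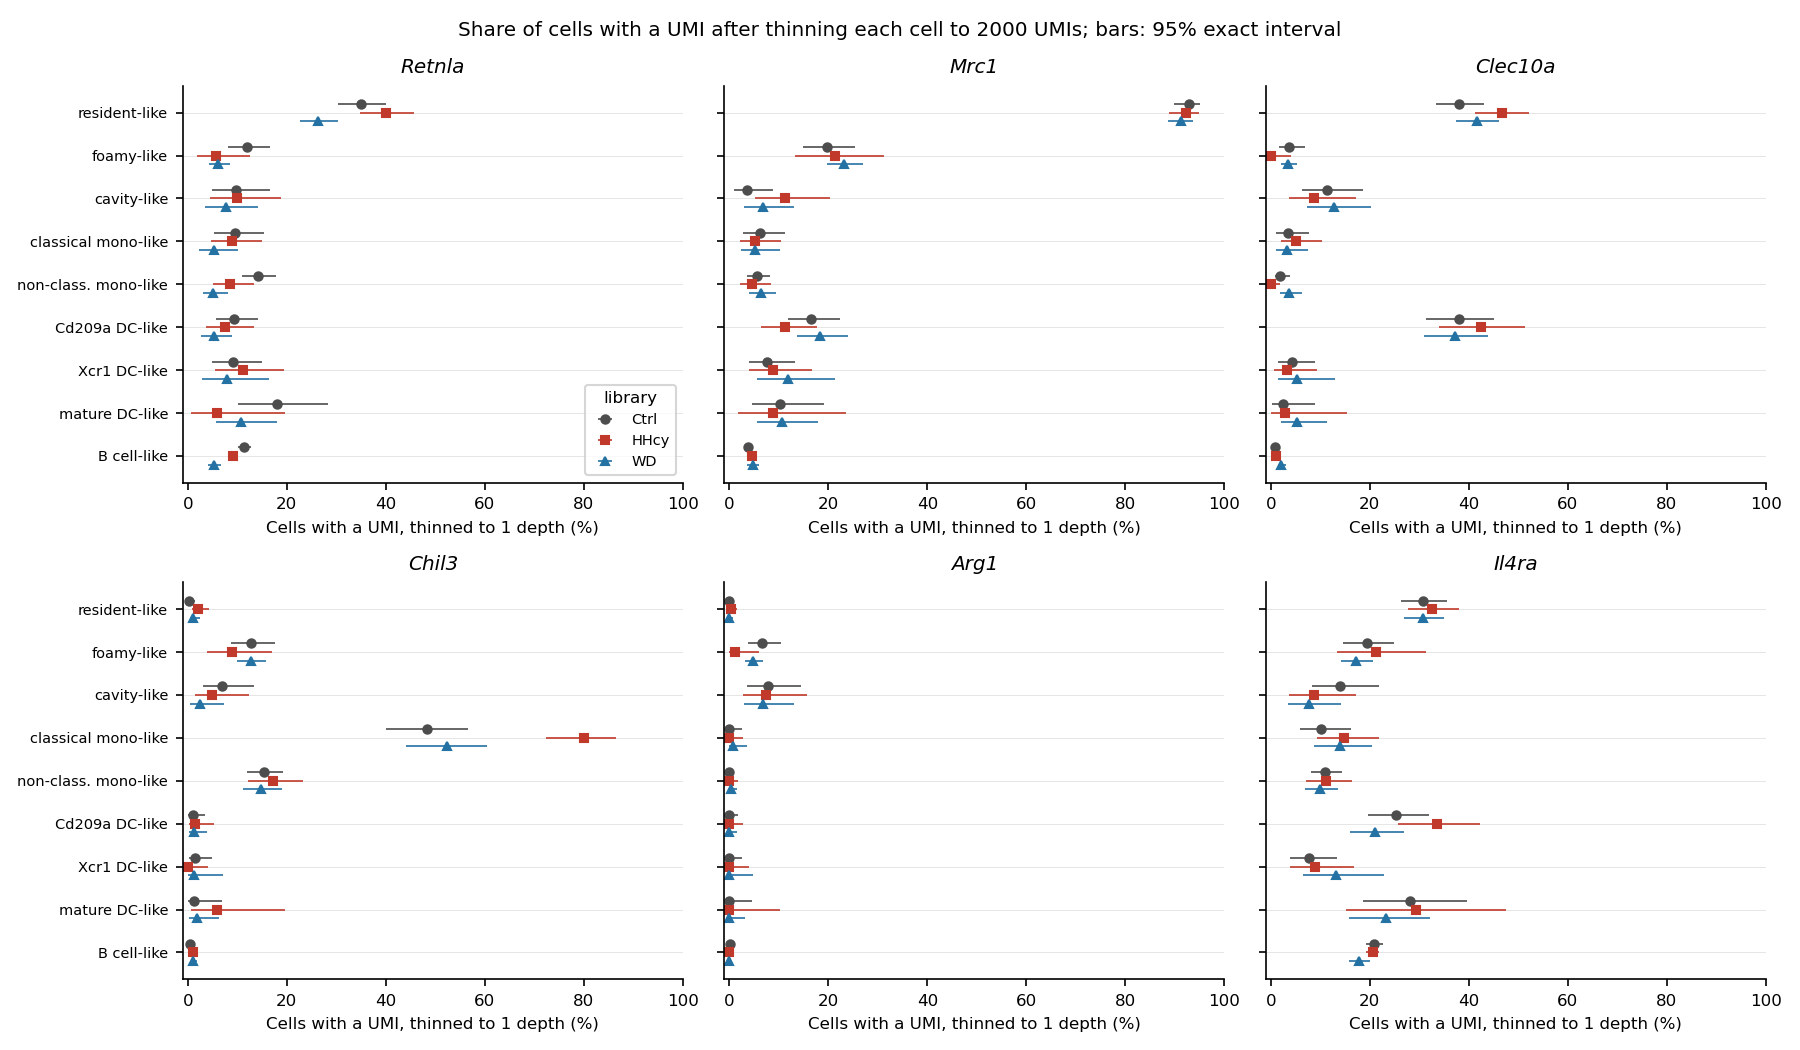
Share of cells (horizontal axis, percent) with a UMI of each gene, 1 panel each, after every cell was reduced to 2000 UMIs, in 8 subsets and in B cells (vertical axis) of each library; bars are exact 95% binomial intervals. Mrc1 is highest in the resident-like macrophages, Chil3 separates HHcy (80.0%) from Ctrl (48.3%) and WD (52.3%) in classical monocyte-like cells, and Il4ra shows similar shares in B cells and in most subsets.

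Whether the resident genes shared cells was read in the resident-like macrophages of both sub-clusters at 2000 UMIs per cell, in 402, 334 and 516 cells. Retnla and Clec10a were seen together in 21.1%, 26.3% and 16.5% of them, where the product of their separate shares was 13.4%, 18.7% and 11%. Retnla with Mrc1 was seen in 32.1%, 38.6% and 24.8%, against products of 32.5%, 37.0% and 24.1%. Mrc1 with Clec10a matched its product as closely. Mrc1 alone was seen in 92.8%, 92.2% and 91.3% of these cells, so that any joint share with it lies near the product. The matches with Mrc1 are therefore not read as a result. The Lyve1 sub-cluster was higher in both Retnla and Clec10a than the Cd163 one, and its part in the joint detection was not tested.

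The genes most like each of the 6 over 42 sums of sub-cluster and library differed, and these sums share libraries and depth. By Pearson correlation of log2(CPM + 1), Retnla was closest to Cavin1 (0.78), Gfra2 (0.78) and Ap2a2 (0.77), and Clec10a to Rgs18 (0.78), F13a1 (0.77) and Rgl1 (0.76). Mrc1 was closest to Cltc (0.92), Wwp1 (0.92) and Gas6 (0.91). Chil3 was closest to C3 (0.86), Ly6c2 (0.86) and Hp (0.85), of which Ly6c2 and Hp were among the markers of classical monocytes. Arg1 was closest to the arginine transporter gene Slc7a2 (0.82), Nt5e (0.78) and Ctsd (0.70), and Il4ra to Prune2 (0.80) and Myo5a (0.78).

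Among other known targets of alternative activation, the number past 2-fold in the macrophage/monocyte-like class differed between pairs. Of 15 such genes 14 were tested between HHcy and Ctrl and 0 were past 2-fold, beside 3.35% of all genes. Their median log2 ratio was -0.14. Between WD and Ctrl 1 of 14 was higher and 1 lower, beside 3.98% of all genes. Ccl22, a chemokine, was higher (4.65 and 17.4 CPM in Ctrl and WD) and Flt1, a VEGF receptor, lower (15.6 and 3.77 CPM). Between HHcy and WD 1 of 14 was higher in HHcy (Flt1) and 3 were lower (Ccl22, Cdh1 and Ch25h), beside 5.47%. Cdh1, E-cadherin, was at 0.83 and 2.13 CPM and Ch25h, cholesterol 25-hydroxylase, at 15.6 and 34.3 CPM. Of 8 genes of arginine use 7 were tested and 0 were past 2-fold in any pair, which lies near the same shares of all genes.

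Of 11 relatives of the 6 genes, 5 were tested between HHcy and Ctrl, and 1 was higher and 2 were lower past 2-fold, beside 3.35% of all genes. Between WD and Ctrl 1 of 5 was higher and 1 lower (3.98%), and between HHcy and WD 1 of 6 was higher and 1 lower (5.47%). Retnlg, a neutrophil relative of Retnla 30.1 kb away with no shared 50-base window, was at 3.92, 15.0 and 8.68 CPM in the class, a log2 ratio of 1.93 (1.53 to 2.35) for HHcy over Ctrl and 1.15 (0.76 to 1.55) for WD over Ctrl. In neutrophil-like cells Retnlg was at 10370, 15700 and 11863 CPM, and the part of free neutrophil RNA in its class values was not tested. Chil1 was at 1.63, 0.25 and 0.79 CPM from 29, 3 and 24 UMIs, past 2-fold in all 3 pairs. Asgr2 was lower in HHcy than in Ctrl (3.58 and 7.63 CPM), and Retn was higher in HHcy than in WD on 10 and 11 UMIs (0.83 and 0.36 CPM). Arg2, the mitochondrial arginase, stood at 12.8, 20.2 and 14.7 CPM and Mgl2 at 232, 279 and 275 CPM. Mrc2, Chia1 and Asgr1 were each under 1 CPM, and Retnlb had 0 UMIs.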

How the data were processed

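The authors deposited raw UMI counts per gene and barcode for 3 libraries, made with Cell Ranger 4.0.0 per the file headers and Cell Ranger 2.2.0 and mm10 per the submitters' processing notes. From these, barcodes with at least 200 genes and at most 10% mitochondrial UMIs were kept, and 524, 1588 and 1258 with markers of several lineages were left out as doublets. Cells were clustered on 2000 variable genes and 30 components with leidenalg 0.10.2 (resolution 1, within myeloid cells 1.2; Python 3.11.15, scipy 1.17.1), with the 6 genes and related lists kept out of clustering and markers, and clusters were named from marker lists. Marker limits for doublets and names, the finer resolution and 2 alternatives (without the library labelled HHcy in clustering, without the 10 highest cells) were set after seeing the data.

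UMIs were summed per subset and library and scaled to 1000000 (CPM). Intervals are exact Poisson for levels, conditional binomial for ratios and Clopper-Pearson for shares, at 95%, and the ratio procedure was tested on simulated data. A gene was called past 2-fold if it had at least 20 UMIs in both libraries together. All 6 genes were named in each subset with at least 50 cells; of the related lists, genes past 2-fold in macrophages and monocytes, relatives of the 6 and receptor subunits were named, with the 3 most alike genes, of which 1 is not reported here. These genes and lists were chosen with earlier results of these data known. Alternatives covered cell limits, doublets, naming, depth, scaling, mix and shared barcodes.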

Additional observations from a re-analysis of the deposited data

Results flagged for a closer look

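In some subsets the difference between libraries ran against, or far beyond, that in others; each rests on 1 library per group, and the difference between subsets was not tested. For Retnla between WD and Ctrl, the log2 ratio was 1.02 in foamy-like macrophages against -2.86 in non-classical monocyte-like cells and -1.29 in Cd209a dendritic-like cells. Between HHcy and WD it was -1.30 in foamy-like macrophages and 1.4 in Cd209a dendritic-like cells. Between HHcy and Ctrl it was 1.47 in classical and -1.91 in non-classical monocyte-like cells. The 10 highest cells held 86.3% of the Retnla UMIs of classical monocyte-like cells in HHcy, 73.7% of those of non-classical cells in Ctrl, 75.1% of those of foamy-like macrophages in WD and 92.2% of those of Cd209a dendritic-like cells in Ctrl. Without the 10 highest cells of each library only the difference between WD and Ctrl in non-classical cells was past 2-fold among these, at -1.33. The levels behind it, 56.2 CPM in Ctrl and 22.3 CPM in WD, were near those of B cells without their 10 highest cells (61.9 and 20.1 CPM). The 10 cells are a smaller part of the B cells, so this comparison is limited. No difference between libraries is read there.

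For Chil3 between HHcy and WD, the log2 ratio was 1.59 in classical monocyte-like cells and 3.48 in cavity-like macrophages but -3.17 in Xcr1 dendritic-like cells. Between WD and Ctrl it was 2.94 in Cd209a, 3.61 in Xcr1 and 1.77 in mature dendritic-like cells but -1.57 in cavity-like macrophages. In WD the dendritic values came from 120, 86 and 61 UMIs, and 10 cells held 100% of those of the Xcr1 cells and 96.7% of those of the mature cells. Without cells of 10 or more Apoe UMIs the cavity-like ratio of HHcy over WD was 1.05.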

How the results depend on the processing

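No paired analysis was possible because each group holds 1 library and the results come from no test. Chil3 in macrophages and monocytes stayed past 2-fold under all 13 settings for HHcy over Ctrl (1.47 to 2.16) and over WD (1.22 to 2.09). Retnla stayed lower in WD than in Ctrl under all 14 (-1.29 to -0.64), past 2-fold in 11. Of genes past 2-fold in this class, WD against Ctrl had 0 instead of 1 with doublets kept, cells named by their own markers, or the same mix of subsets, and HHcy against WD had 1 instead of 2 under these and without cells of 10 or more Apoe UMIs, and 3 without the 10 highest cells, where Arg1 was at -1.18. In dendritic cells HHcy against Ctrl had 0 instead of 1 with cells thinned or without the 10 highest cells. WD against Ctrl there had 2 with a 20% mitochondrial limit, doublets kept, the genes allowed in clustering, resolution 2 or a minimum of 1 UMI, 3 with own markers and 0 thinned. HHcy against WD there had 0 under the 20% limit, the genes allowed, resolution 2 or thinning, and 2 with own markers, 1 UMI or without 10 cells. Direction turned for Arg1 in foamy-like macrophages, WD over Ctrl, at 1.21 without the 10 highest cells, and for Retnla there at -1.31 with own markers and -0.12 without 10 cells. Without 10 cells it also turned for Chil3 in cavity-like macrophages (HHcy over Ctrl, -1.14) and for Retnla in classical monocyte-like cells (HHcy over Ctrl, -0.55) and Cd209a dendritic-like cells (HHcy over WD, -0.07). Directions of ratios under 2-fold turned for class Arg1 (to 0.86 for HHcy over Ctrl, 0.61 for WD over Ctrl and 0.74 for HHcy over WD), for class Retnla (HHcy over Ctrl, to -0.14) and for Retnla in dendritic cells, which kept its sign under 10 of 13, 10 of 14 and 11 of 13 settings (to -0.76, 0.61 and -0.77). The joint detection of Retnla and Clec10a over its product was 1.49, and 1.26 at 5000 UMIs. Of the 18 most alike genes, 11 were kept with a pseudocount of 10 and 7 over pooled sums. The cause of these shifts was not tested. Low UMI numbers limit Arg1 in monocytes, resident-like macrophages and dendritic cells, and Chil3 in dendritic cells. In Spp1 foamy-like macrophages of Ctrl and WD and in cavity-like macrophages, 10 cells held 61.4% to 93.5% of the Arg1 UMIs of a library.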
